A study of Rattus norvegicus with 9 samples.

Results

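The histamine receptor gene Hrh1 and 9 genes of the path below it were followed in RNA sequencing of rat spinal cord. The 9 others encode G protein alpha subunits (Gnaq, Gna11), phospholipase C isozymes (Plcb1, Plcb4, Plcd1, Plcd4) and inositol trisphosphate (IP3) receptors (Itpr1, Itpr2, Itpr3). They are the rows with these gene names, 10 of the 34890 loci listed, and each name matched 1 locus. Hrh1 was chosen because its level was lower in treated than in untreated injured rats in these same libraries, and the others because they belong to its path, with earlier results known. Values of the 10 genes from that contrast are therefore given as a description, with no p-value printed, and counts of genes past a threshold stand beside those of all loci with nothing read from them.

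L3-L6 spinal cord from the injured side of wild-type Sprague Dawley rats was collected on day 21, with 3 libraries per group, each from a separate biological replicate. JA rats had a sham operation and received normal saline by mouth. SNI rats had a spared nerve injury, in which branches of the sciatic nerve are ligated and cut, and received saline in the same way. PLM rats had the same injury and were given paeoniflorin at 20.65 mg/mL together with liquiritin, whose concentration the labels give as 3.98, 3.99 and 3.100 mg/mL for replicates 1, 2 and 3. The methods of the study describe a single concentration for the group, so these labels are not taken as different doses. Treated rats without injury were not part of the design analysed here, and the tissue is a mixture of all cell types of the cord segment.

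H1 is the receptor through which histamine excites many neurons and raises calcium in glia. It activates the Gq class of alpha subunits, which switch on the beta isozymes of phospholipase C, whereas the delta isozymes respond mainly to calcium itself. Phospholipase C splits the membrane lipid PIP2 into diacylglycerol and IP3, and IP3 opens its receptors on the endoplasmic reticulum to release calcium. In the cord this path serves many transmitters and is used by neurons and astrocytes alike.

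The 250 bases before the RefSeq start were read for all 10 genes (build GRCr8, 5′ to 3′ on the gene's strand), and the 4 promoters with the largest differences between SNI and PLM among the members are shown. Capitals mark matches, on either strand, to any of 6 motifs. These were the GC box with the letters GGGCGG, the TATA box with the letters TATAAA, the CCAAT box, the half-site of the cAMP response element with the letters TGACG, the E box with the letters CAGCTG, and the full site of nuclear factor I, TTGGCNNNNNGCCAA. None of these motifs contains another, though the end of the nuclear factor I site can overlap a CCAAT box. The Hrh1 window is chr4:149120261-149120510 on the plus strand, that of Plcd4 chr9:83566014-83566263 on the plus strand, that of Plcd1 chr8:127695940-127696189 on the minus strand and that of Plcb1 chr3:142512515-142512764 on the plus strand.
Hrh1: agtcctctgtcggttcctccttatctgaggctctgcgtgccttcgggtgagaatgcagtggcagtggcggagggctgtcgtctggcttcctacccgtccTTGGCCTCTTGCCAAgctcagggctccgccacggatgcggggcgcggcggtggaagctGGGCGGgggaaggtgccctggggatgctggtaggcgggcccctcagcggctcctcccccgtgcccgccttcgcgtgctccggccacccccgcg
Plcd4: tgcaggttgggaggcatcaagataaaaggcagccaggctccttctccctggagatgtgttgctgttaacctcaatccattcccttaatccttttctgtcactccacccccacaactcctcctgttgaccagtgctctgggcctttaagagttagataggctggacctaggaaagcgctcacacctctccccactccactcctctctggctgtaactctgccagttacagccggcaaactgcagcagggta
Plcd1: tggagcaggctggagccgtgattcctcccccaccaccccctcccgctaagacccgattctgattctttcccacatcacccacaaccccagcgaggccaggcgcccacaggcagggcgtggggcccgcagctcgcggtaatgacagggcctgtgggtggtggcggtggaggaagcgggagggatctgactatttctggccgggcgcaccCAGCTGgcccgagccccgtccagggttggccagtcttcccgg
Plcb1: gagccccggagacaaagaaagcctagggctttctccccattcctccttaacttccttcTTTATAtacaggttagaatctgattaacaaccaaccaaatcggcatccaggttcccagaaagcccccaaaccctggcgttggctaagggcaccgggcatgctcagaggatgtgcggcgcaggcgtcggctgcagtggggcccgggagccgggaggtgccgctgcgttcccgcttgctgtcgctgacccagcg

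The 4 windows were not alike. Hrh1 had 70.4% GC and 22 CpG dinucleotides, Plcd1 68% and 16, Plcb1 59.6% and 15, and Plcd4 53.2% and 2, where the median of 33469 RefSeq promoters was 51.2% and 5 CpG. Hrh1 held 1 GC box and 1 full nuclear factor I site. The full site was found in 12 of the 33469 promoters (0.0359%), and the motifs were chosen after values had been seen, so nothing is read from this share. Plcd1 held an E box, present in 12% of promoters, Plcb1 a TATA box on the reverse strand, present in 12.9%, and Plcd4 none of the 6 motifs. Of the other members, Plcb4 had the highest GC content (86.4%, 46 CpG and 7 GC boxes) and Itpr1 the lowest (62.0%, 9 CpG). A GC box occurred in 6 of the 10 members' windows and in 30.5% of all promoters, so no motif was common to the members.

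Levels are in TPM, which are scaled for gene length and can be compared between genes. The alpha subunits were the most abundant and the receptor the least in every group. The order of the means in JA was Gna11, Gnaq, Plcd4, Plcb4, Plcd1, Itpr2, Itpr1, Plcb1, Itpr3 and Hrh1. The ranges of neighbours overlapped in JA from Gnaq to Plcb4 and from Plcd1 to Itpr3, whereas in SNI the first 5 were separate from each other. In PLM, Plcb4 stood above Plcd4, with no overlap between the 3 libraries of each. TPM keeps no read depth, so the counting error of a level such as that of Hrh1 is unknown.

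**Figure D1:**
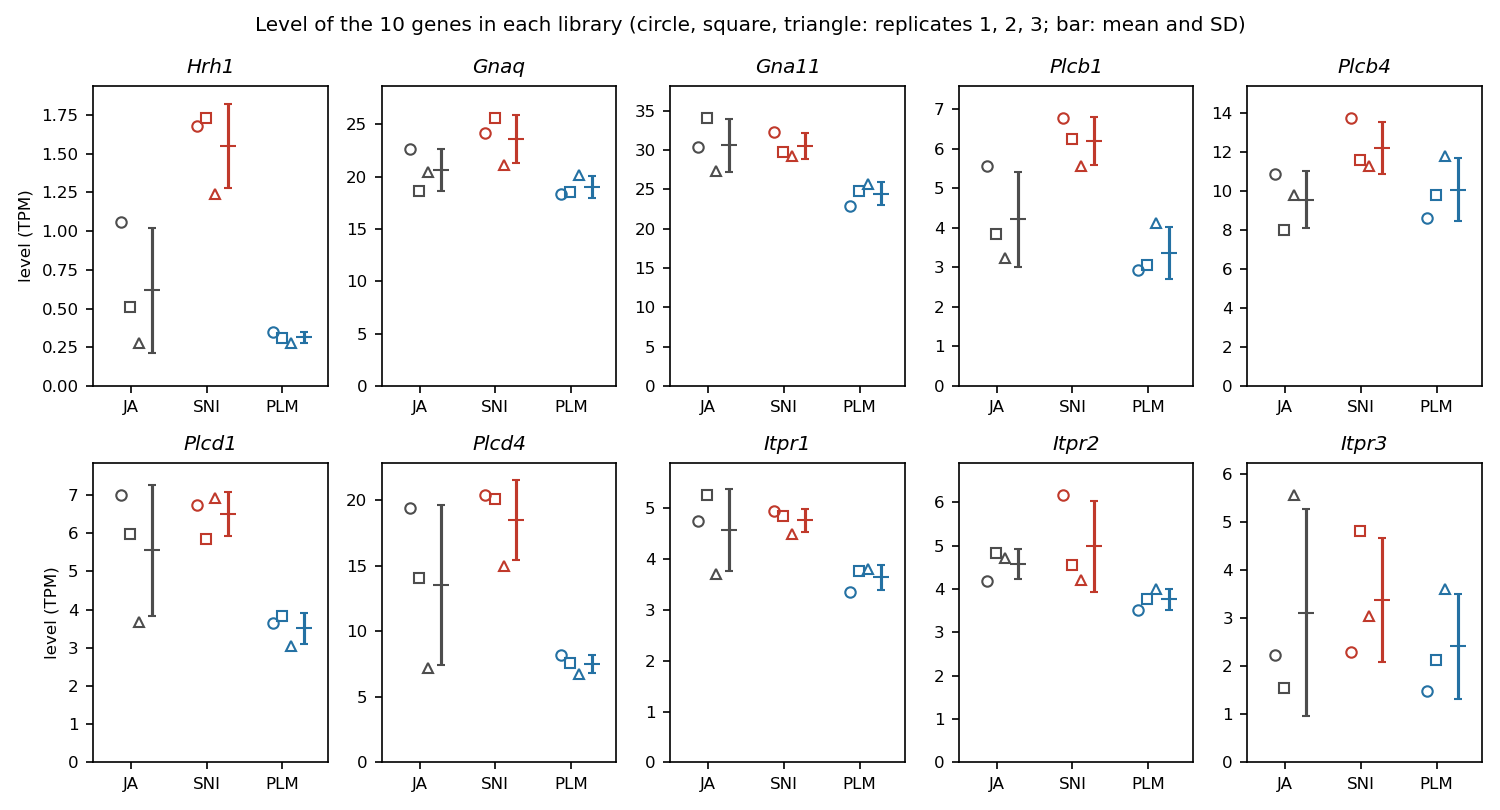
Level of each of the 10 genes (vertical axis, TPM) in the 3 libraries of JA, SNI and PLM, with the mean and SD beside them. The 3 SNI libraries lie above the 3 JA libraries for Hrh1, Plcb1 and Plcb4, and the 3 PLM libraries lie below the 3 SNI libraries for 8 genes, all but Plcb4 and Itpr3.

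The libraries differed in ways that touch these genes. JA replicate 3 stood apart, with 7608 TPM summed over 7 Schwann cell and root markers, where the other 8 libraries ranged from 125 to 4370 TPM. Its 15 astrocyte markers summed to 1135 TPM, against 2514 and 2088 TPM in JA replicates 1 and 2. Astrocyte markers summed to 2128 to 2494 TPM in SNI and to 809 to 1003 TPM in PLM. As deposited, 14 of the 15 were lower in PLM than in SNI at an adjusted p under 0.05, where 13.6% of all loci were. No marker of either list was at 0 in a group. The 14 neuron markers summed to 2531 to 4874 TPM in JA, 4824 to 6063 TPM in SNI and 4166 to 4810 TPM in PLM. SNI and PLM did not overlap for this sum, just as for 2 further lists. Oligodendrocyte precursor markers summed to 336 to 346 TPM in SNI and to 263 to 303 TPM in PLM. Oligodendrocyte markers summed to 46928 to 49159 TPM in SNI and to 50650 to 51611 TPM in PLM. No marker of these lists passed the test between PLM and SNI. Blood markers (4 in the table) summed to 5387 to 11876 TPM in JA, highest in replicate 3, to 4117 to 7265 TPM in SNI and to 7987 to 11176 TPM in PLM, with no overlap between SNI and PLM and 0 of 4 past the test. Meninges and fibroblast markers summed to 366 TPM in JA replicate 3, to 137 and 141 TPM in the other JA libraries, to 99.3 to 245 TPM in SNI and to 65.7 to 137 TPM in PLM. Of these markers, 2 of 6 fell in PLM against SNI, where 13.6% of all loci did. The 13 mitochondrial protein genes took 25.3% to 32.8% of TPM in JA, 23.7% to 26.1% in SNI and 31.3% to 32.8% in PLM. In tissue of mixed cells, fewer cells of a type and less RNA per cell cannot be told apart.

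Each pair of groups was tested with limma on log2(TPM + 1). Loci entered when they averaged 1 TPM or more across the 6 libraries of the pair, and p-values were adjusted by Benjamini-Hochberg over all these loci. Fold changes on this scale understate the change of low genes. Values were also centred on each library's median, because the median log2 fold change of all loci was 0.12 for SNI versus JA, -0.096 for PLM versus JA and -0.21 for PLM versus SNI.

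Injury was compared first. It uses the same SNI libraries as the contrast that chose Hrh1, and a gene chosen for being higher there is more likely to exceed JA as well, so Hrh1 has no p-value here and the counts below that hold it are not independent of the choice. Hrh1, the receptor, measured 1.06, 0.51 and 0.28 TPM in the JA libraries and 1.68, 1.73 and 1.24 TPM in the SNI libraries. Every SNI library was above every JA library, and the means were 0.617 ± 0.401 and 1.55 ± 0.270 TPM (SD, n = 3), a ratio of 2.51. Its log2 fold change was 0.68 with a standard error of 0.24. Centred on the median it was 0.56, and without JA replicate 3 it was 0.53. Within JA, Hrh1 was highest in replicate 1, which had the most astrocyte and the most neuron marker RNA of the JA libraries. It was lowest in replicate 3, which had the least astrocyte marker RNA, while replicate 2 had the least neuron marker RNA. Neuron markers summed to 2531 to 4874 TPM in JA and to 4824 to 6063 TPM in SNI. The part of the astrocyte and neuron markers in the Hrh1 difference was not tested.

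The alpha subunits carry the signal from the receptor. Gnaq measured 22.67, 18.64 and 20.46 TPM in JA and 24.15, 25.58 and 21.09 TPM in SNI. These ranges overlapped, with a log2 fold change of 0.19 (SE 0.11, adjusted p = 0.614, limma), or 0.067 when centred and 0.12 without JA replicate 2. Gna11 averaged 30.6 ± 3.39 TPM in JA and 30.5 ± 1.66 TPM in SNI (SD, n = 3), with a 95% interval of the log2 fold change from -0.25 to 0.25. Gnaq made up 40.3% ± 4.28 of the summed TPM of Gnaq and Gna11 in JA and 43.6% ± 2.28 in SNI (SD, n = 3).

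Of the beta isozymes, which the alpha subunits activate, Plcb1 measured 5.57, 3.85 and 3.25 TPM in JA and 6.78, 6.25 and 5.58 TPM in SNI. The lowest SNI library was just above the highest JA library, and the log2 fold change was 0.48 (SE 0.18, unadjusted p = 0.0324, adjusted p = 0.614, limma), or 0.36 when centred and 0.35 without JA replicate 3. Plcb4 measured 10.89, 7.97 and 9.81 TPM in JA and 13.73, 11.59 and 11.27 TPM in SNI. All 3 SNI libraries were above the JA libraries here too, with a log2 fold change of 0.33 (SE 0.14, adjusted p = 0.614, limma), or 0.21 when centred and 0.21 without JA replicate 2. The part of the cell type markers in Plcb1 and Plcb4 was not tested.

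The delta isozymes, which respond to calcium, varied widely in JA. Plcd4 measured 19.39, 14.05 and 7.21 TPM in JA and 20.41, 20.07 and 14.96 TPM in SNI. JA replicate 1 was as high as the SNI libraries and JA replicate 3 far below them. The log2 fold change of Plcd4 was 0.50 (SE 0.33, adjusted p = 0.622, limma), and it was 0.14 without JA replicate 3 and 0.80 without JA replicate 1. Plcd1 measured 7.01, 5.98 and 3.67 TPM in JA and 6.74, 5.85 and 6.91 TPM in SNI. Its log2 fold change of 0.23 (SE 0.21, adjusted p = 0.680, limma) was 0.11 when centred, 0.0015 without JA replicate 3 and 0.39 without JA replicate 1.

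The IP3 receptors release stored calcium. Itpr1, the form most abundant in neurons, was at 4.58 ± 0.801 TPM in JA and 4.76 ± 0.232 TPM in SNI (SD, n = 3). Itpr2, the main form of astrocytes, was at 4.58 ± 0.344 and 4.99 ± 1.05 TPM (SD, n = 3). Their log2 fold changes were 0.06 (SE 0.14) and 0.09 (SE 0.15) as deposited and -0.06 and -0.03 when centred. Itpr3 measured 2.24, 1.54 and 5.57 TPM in JA and 2.30, 4.81 and 3.05 TPM in SNI. In each group its highest library was the one with the most Schwann cell and root marker RNA, JA replicate 3 and SNI replicate 2. The part of these markers in Itpr3 was not tested. As a share of the summed TPM of the 3 receptors, Itpr1 differed by -1.70 percentage points between SNI and JA, Itpr2 by 0.43 and Itpr3 by 1.27. Exact two-sided permutation tests gave p = 0.9, 1 and 1, where 0.10 is the smallest that 3 libraries against 3 allow.

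Of the 9 members other than Hrh1, 0 passed the adjusted threshold between SNI and JA, where 0 of 15557 loci (0%) did. At an unadjusted p under 0.05 there was 1 of these 9, Plcb1, where 7.10% of all loci were below it in either direction. Every SNI library was above every JA library for 3 of the 10, Hrh1 included, against 12.1% of all loci tested. The fold change was below 0 for 1 of the 10, where 23.6% of all loci were, and for 3 of the 10 when centred, where 51.4% were. The median over the 10 was 0.21, where all loci had 0.12, and 0.087 when centred, where all loci had -0.0055.

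**Figure D2:**
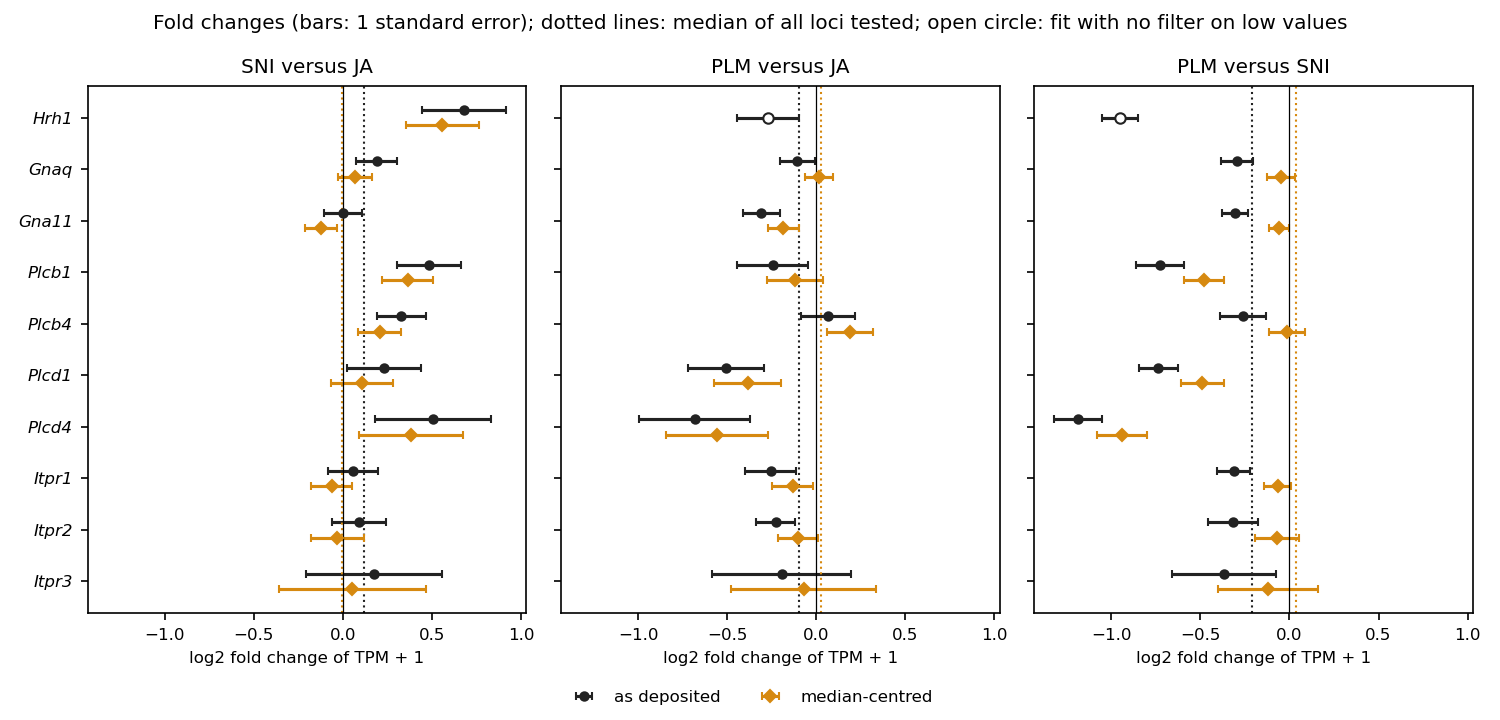
Log2 fold change of TPM + 1 (horizontal axis) of the 10 genes with bars of 1 standard error in the 3 comparisons, as deposited and centred on each library's median, with dotted lines at the median of all loci. Hrh1 was under the filter in the comparisons with PLM, so the open circle there shows the fit with no filter. In PLM versus SNI, Plcd4 is at -0.94, Plcd1 at -0.49 and Plcb1 at -0.48 when centred, and Gnaq, Gna11, Plcb4 and the 3 IP3 receptors lie between -0.12 and -0.01.

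Hrh1 was chosen on the comparison of PLM with SNI and the path was taken up for that reason, so its values follow as a description. Hrh1 measured 0.35, 0.31 and 0.28 TPM in PLM, all below the lowest SNI library (1.24 TPM). The mean of 0.313 ± 0.0351 TPM (SD, n = 3) was 0.202 times that of SNI, and the log2 fold change of TPM + 1 was -0.95 (SE 0.10) in the fit with no filter. The mean over SNI and PLM together was under 1 TPM, so Hrh1 was not among the 15474 loci tested.

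Both alpha subunits were lower in PLM, where the median locus had a log2 fold change of -0.21. Gnaq measured 18.35, 18.50 and 20.17 TPM in PLM, with a log2 fold change of -0.30 (SE 0.09) against SNI and -0.05 when centred. Gna11 measured 22.88, 24.75 and 25.72 TPM, with -0.31 (SE 0.07) and -0.06 when centred. No PLM library reached the SNI libraries for either gene. Gnaq made up 43.7% ± 0.885 of their summed TPM in PLM, against 43.6% ± 2.28 in SNI (SD, n = 3).

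The phospholipase C genes were not lower to the same degree. Plcd4 measured 8.19, 7.54 and 6.77 TPM in PLM, about the level of JA replicate 3 (7.21 TPM), and its mean of 7.50 ± 0.711 TPM was 0.406 times the SNI mean of 18.5 ± 3.05 TPM (SD, n = 3). The log2 fold change was -1.19 (SE 0.14), or -0.94 when centred. Plcd1 measured 3.66, 3.82 and 3.04 TPM in PLM, with a log2 fold change of -0.74 (SE 0.11), or -0.49 when centred. Plcb1 measured 2.93, 3.05 and 4.12 TPM, with -0.73 (SE 0.13), or -0.48 when centred. For these 3 genes every PLM library was below every SNI library. Plcb4 measured 8.60, 9.79 and 11.78 TPM, overlapped with SNI and had a log2 fold change of -0.26 (SE 0.13), or -0.01 when centred and -0.16 without PLM replicate 1.

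The shares of the isozymes were accordingly not the same in SNI and PLM. Plcd4 made up 42.8%, 45.9% and 38.6% of the summed TPM of the 4 isozymes in SNI and 35.0%, 31.2% and 26.3% in PLM. Plcb4 made up 28.8%, 26.5% and 29.1% in SNI and 36.8%, 40.5% and 45.8% in PLM. The groups did not overlap for either share, and a share within a family does not move with the scaling of a library. In JA these shares were 45.2%, 44.1% and 30.1% for Plcd4 and 25.4%, 25.0% and 41.0% for Plcb4, so that JA replicate 3 lay with the PLM libraries. Plcb1 was between 12.1% and 16% and Plcd1 between 11.8% and 18.8% over all 9 libraries. The 4 isozymes together had 32.9 ± 9.5 TPM in JA, 43.4 ± 4.48 TPM in SNI and, in PLM, 24.4 ± 1.18 TPM (SD, n = 3). These shares were chosen after the values had been seen and have no test.

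**Figure D3:**
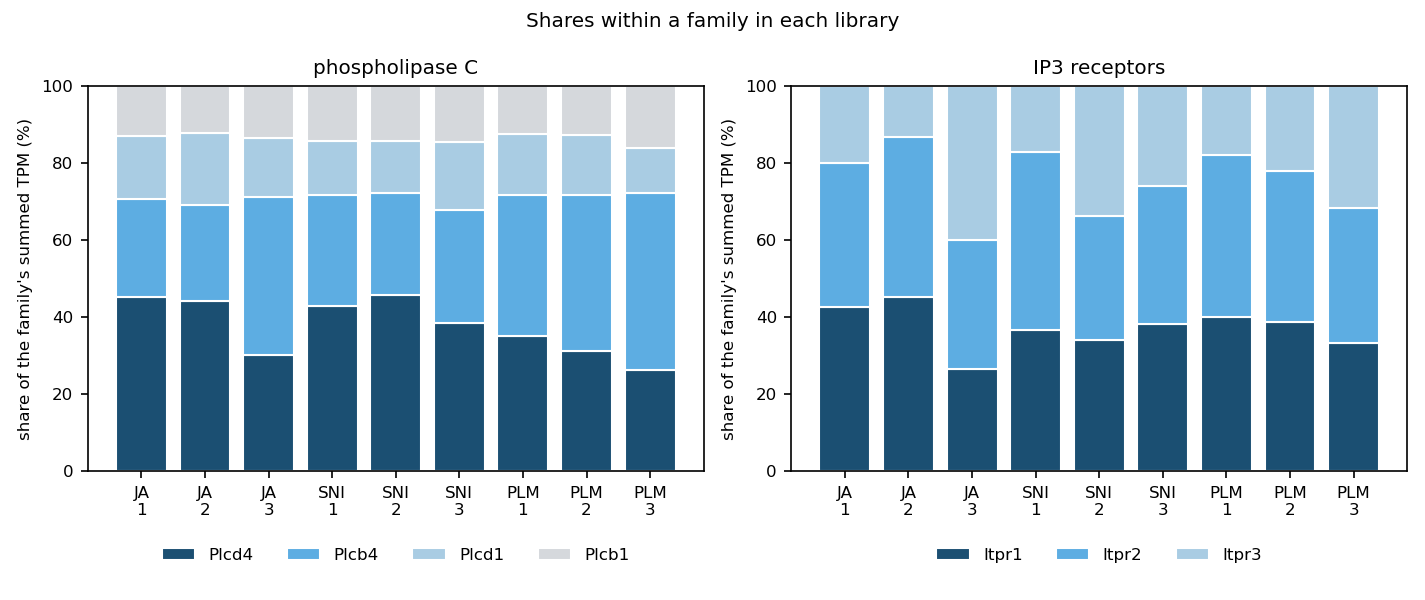
Share of each gene in the summed TPM of its family (vertical axis, percent) in each of the 9 libraries, for the 4 phospholipase C genes and the 3 IP3 receptor genes. The share of Plcd4 is 26.3% to 35.0% in PLM and 38.6% to 45.9% in SNI, and JA replicate 3, at 30.1%, lies apart from JA replicates 1 and 2.

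Among the IP3 receptors, Itpr1 measured 3.35, 3.76 and 3.81 TPM in PLM and Itpr2 3.51, 3.78 and 4.0 TPM, in both cases below every SNI library. Their log2 fold changes were -0.31 (SE 0.09) and -0.32 (SE 0.14), and -0.07 for each when centred. Without SNI replicate 1, Itpr2 was at -0.18. Itpr3 measured 1.49, 2.14 and 3.61 TPM and overlapped with SNI. The summed TPM of the 3 receptors was 13.1 ± 1.25 for SNI and 9.82 ± 1.54 for PLM (SD, n = 3). Their shares were close, with Itpr1 at 36.4% and 37.4%, Itpr2 at 38.0% and 38.7% and Itpr3 at 25.6% and 23.9% on average in SNI and PLM.

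By count, 4 of the 9 members tested (Plcd4, Plcd1, Plcb1 and Gna11) were lower in PLM at an adjusted p under 0.05, where 13.6% of all loci were lower and 0.246% higher. When centred it was 0 of 9, where 0.685% of all loci were lower and 0.129% higher. Where a log2 fold change beyond 1 in size and an unadjusted p under 0.05 were asked for, it was Plcd4 alone, where 1.42% of loci were lower. The PLM libraries were all below the SNI libraries for 8 of the 10, where 41.9% of loci were. Hrh1 was chosen on this contrast and the other members with its results known, so nothing is read from these counts.

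**Figure D4:**
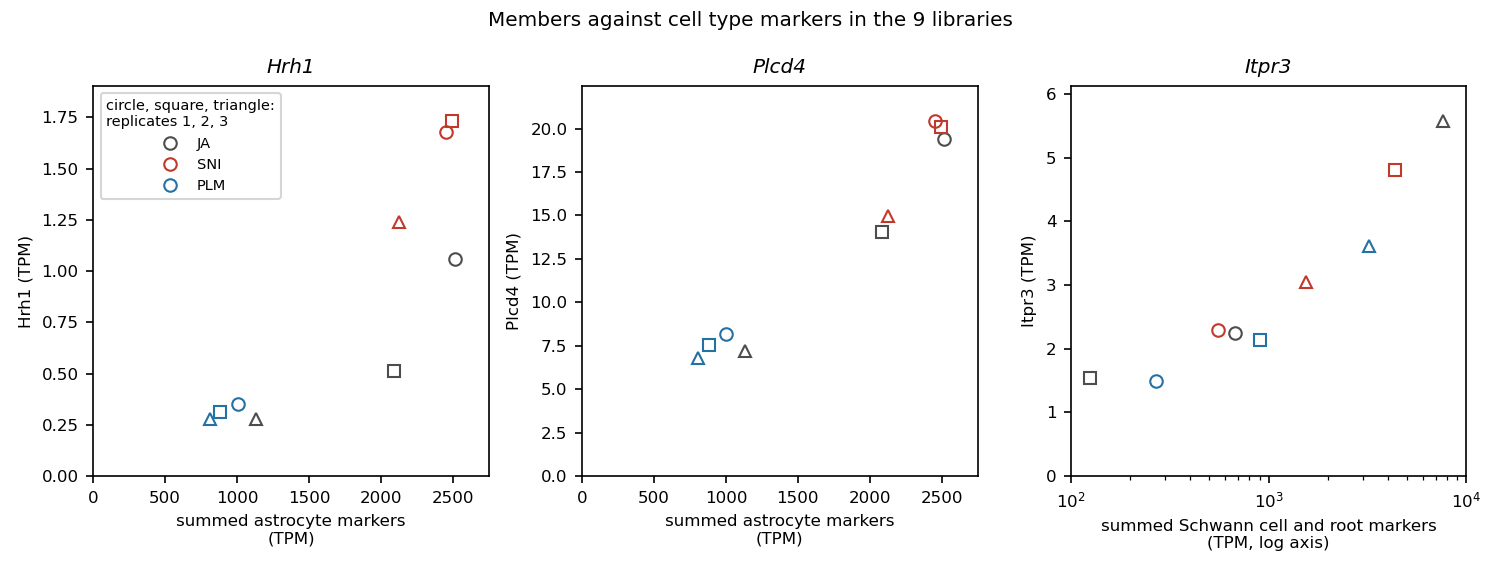
Level of Hrh1 and Plcd4 (TPM) against the summed TPM of 15 astrocyte markers, and of Itpr3 against the summed TPM of 7 Schwann cell and root markers on a log axis, in the 9 libraries. The PLM libraries and JA replicate 3 have 809 to 1135 TPM of astrocyte markers, Hrh1 at 0.28 to 0.35 TPM and Plcd4 at 6.77 to 8.19 TPM.

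Hrh1 and Plcd4 were ordered among the libraries much as the astrocyte markers were. The 3 PLM libraries and JA replicate 3 had the lowest values of all 3 measures. At a like astrocyte marker sum, JA replicate 1 (2514 TPM) had 1.06 TPM of Hrh1, where SNI replicates 1 and 2 (2452 and 2494 TPM) had 1.68 and 1.73 TPM. For Plcd4 the same 3 libraries were close, at 19.39, 20.41 and 20.07 TPM. The astrocyte markers differed between PLM and SNI by a median log2 fold change of -1.44, and their part in the lower Hrh1, Plcd4, Plcd1 and Plcb1 was not tested.

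PLM was compared with JA to see where treated injured rats stood against sham rats. This comparison shares the PLM libraries with the one that chose the members and the JA libraries with that of injury. Hrh1 overlapped between the groups, at 0.28 to 0.35 TPM in PLM and 0.28 to 1.06 TPM in JA, with a log2 fold change of -0.27 (SE 0.17) in the fit with no filter. Of the 9 others, 0 passed the adjusted threshold, where 0.0195% of 15349 loci did. Gna11 was at 24.4 ± 1.44 TPM in PLM and 30.6 ± 3.39 TPM in JA (SD, n = 3), with a log2 fold change of -0.31 (SE 0.11, unadjusted p = 0.0229, adjusted p = 0.379, limma). Plcd1 had -0.51 (SE 0.21, unadjusted p = 0.0496, adjusted p = 0.422, limma). These were the 2 of 9 at an unadjusted p under 0.05, where 11.8% of loci were, and when centred it was 0 of 9, where 9.98% of loci were, with Gna11 at -0.18 and Plcd1 at -0.38. Plcd4 had -0.68 (SE 0.31, adjusted p = 0.462, limma), from -1.05 without JA replicate 3 to -0.39 without JA replicate 1. The PLM libraries were all below the JA libraries for Gna11 and Itpr2, 2 of the 10, where 15.7% of loci were. The fold change was below 0 for 8 of the 9 members tested, all but Plcb4, where 71.2% of all loci were, and for 7 of the 9 when centred, where 43.7% were.

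The loci with a gene name whose log2(TPM + 1) was most like that of Hrh1 over the 9 libraries were Dipk1c (Pearson's r = 0.996), Ywhae (0.992), Abhd6 (0.989), Scg3 (0.987) and AABR07030603.1 (0.985), among 15503 loci. Dipk1c measured 2.49, 1.40 and 1.15 TPM in JA, 3.22, 3.40 and 2.62 TPM in SNI and 1.31, 1.3 and 1.22 TPM in PLM. It was first in this order also by Spearman's rho and when centred, whereas Ywhae was at rank 3707 when centred. The order of the members depended on the measure. By Pearson's r as deposited, Plcb1 had 0.943 (rank 163), Plcd4 0.928 (rank 324), Gnaq 0.874, Plcd1 0.838, Itpr1 0.720, Plcb4 0.644, Gna11 0.618, Itpr2 0.561 and Itpr3 0.125. When centred, Plcb1 (0.899), Plcd4 (0.889) and Plcd1 (0.713) came before Gnaq (0.406), and Plcb4 (0.187), Itpr1 (0.163), Itpr2 (-0.050), Gna11 (-0.071) and Itpr3 (-0.122) were lower still. By Spearman's rho Plcd4 was at rank 17 and Plcb1 at rank 2195. The libraries share their groups and their scaling, so these values describe the 9 libraries and have no p-value.

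The rest of the path was followed in 8 lists of 187 genes, 181 of them in the table. Between SNI and JA, 0 of 142 tested genes passed the adjusted threshold in limma and 12 were at an unadjusted p under 0.05, where 7.10% of all loci were. Between PLM and JA it was 0 of 135 and 18, where 11.8% of all loci were. Between PLM and SNI, 27 of 140 fell (19.3%, where 13.6% of all loci did) and 0 rose, where 0.246% of all loci did. The median log2 fold change was -0.29, where all loci had -0.21. When centred, 3 of 140 fell (2.14%, where 0.685% of all loci did), Itpkb, Ahcyl1 and Ednrb, and 1 rose, Rgs4, where 0.129% of all loci did. No list was tested against the other loci or against another list. The lists were written with earlier results of these libraries known.

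Of the histamine system, 1 of 6 tested genes fell between SNI and PLM (all loci 13.6%), Aldh7a1, an aldehyde dehydrogenase, from 50.8 ± 3.93 to 34.0 ± 1.25 TPM (SD, n = 3; log2 fold change -0.57, adjusted p = 0.0128, limma). It did not pass when centred (-0.32, adjusted p = 0.151, limma). The other histamine receptors were Hrh3, the inhibitory receptor of neurons, at 11.6 ± 2.01, 12.7 ± 2.44 and 11.4 ± 0.226 TPM in JA, SNI and PLM (SD, n = 3), and Hrh2 at 0.48, 0.443 and 0.167 TPM on average, while Hrh4 was listed at 0. Hnmt, which methylates and so inactivates histamine, was at 1.74, 2.31 and 1.99 TPM on average. Hdc, which makes histamine, was at 0.297, 0.25 and 0.20 TPM.

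Among other receptors that couple to Gq, 3 of 27 fell in PLM, or 11.1%, where 13.6% of all loci did. Ednrb, the endothelin B receptor, measured 26.01, 23.66 and 12.28 TPM in JA, 28.94, 32.58 and 23.33 TPM in SNI and 11.13, 10.73 and 11.58 TPM in PLM. Every PLM library was below every other library, and the log2 fold change against SNI was -1.26 (SE 0.12, adjusted p = 0.00565, limma), or -1.01 when centred (adjusted p = 0.0294, limma). F2r, a thrombin receptor, had -0.46 (adjusted p = 0.0262, limma) and Tacr1, the substance P receptor, -0.92 (adjusted p = 0.0407, limma), and neither passed when centred. The study had already reported that treatment reversed a rise of Ednrb and Tacr1, so the p-values of these genes are not independent of that choice. Of other alpha subunits and regulators, 2 of 15 fell (13.3%), Arrb1 and Grk5, which switch off active receptors, and neither passed when centred. Rgs4, which speeds the shut-off of Gq, averaged 17.2 ± 0.775 TPM with injury alone and 19.4 ± 1.3 TPM with treatment (SD, n = 3). Its log2 fold change was 0.16 as deposited (adjusted p = 0.165, limma) and 0.41 when centred (adjusted p = 0.0440, limma).

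Of other phospholipase C isozymes, 2 of 10 fell in PLM (all loci 13.6%), Plcb3 (log2 fold change -0.46, adjusted p = 0.0348, limma) and Plcg1 (-0.29, adjusted p = 0.0427, limma). Plcb2 was at 0.357, 0.453 and 0.30 TPM on average in JA, SNI and PLM, below the filter. Of the enzymes and carriers that supply PIP2, 4 of 21 fell (19.0%), with Pitpnm2, Cdipt, Pip4k2c and Pitpna between -0.37 and -0.22. Of the diacylglycerol arm, 1 of 24 fell (4.17%), Daglb (-0.41, adjusted p = 0.0274, limma), which turns diacylglycerol into the endocannabinoid 2-arachidonoylglycerol. None of these genes passed when centred.

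The enzymes that break down IP3 and recycle inositol had 3 of 12 lower in PLM, where 13.6% of all loci were. Itpkb, a kinase that turns IP3 into its tetrakisphosphate, measured 33.11, 31.07 and 22.06 TPM in JA, 36.49, 39.19 and 35.21 TPM in SNI and 18.33, 18.25 and 21.07 TPM in PLM. All PLM libraries were below all other libraries. The log2 fold change against SNI was -0.91 (SE 0.08, adjusted p = 0.00526, limma), or -0.66 when centred (adjusted p = 0.0263, limma). Impa2 and Inpp5a fell by 0.41 and 0.27 on the log2 scale and did not pass when centred.

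The partners of the IP3 receptor and the genes of stored calcium had 11 of 25 lower in PLM (44.0%, where 13.6% of all loci were) and 1 of 25 when centred (4.0%, where 0.685% of all loci were), with a median log2 fold change of -0.33, where all loci had -0.21. Ahcyl1, which binds the IP3 site of the receptor and competes with IP3, measured 131.08, 108.44 and 80.88 TPM in JA, 147.61, 138.70 and 129.20 TPM in SNI and 83.07, 82.69 and 81.70 TPM in PLM. The PLM libraries were about level with JA replicate 3 and far below SNI, with a log2 fold change of -0.74 (SE 0.06, adjusted p = 0.00497, limma), or -0.49 when centred (adjusted p = 0.0402, limma). Saraf, a brake on store-operated calcium entry, had -0.40 (adjusted p = 0.00984, limma), and the calcium-binding chaperone Calr -0.39 (adjusted p = 0.0128, limma). Of the 11 genes, Ahcyl1 alone passed when centred. The astrocyte markers were lower in the same libraries, and their part in Ednrb, Itpkb and Ahcyl1 was not tested.

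**Figure D5:**
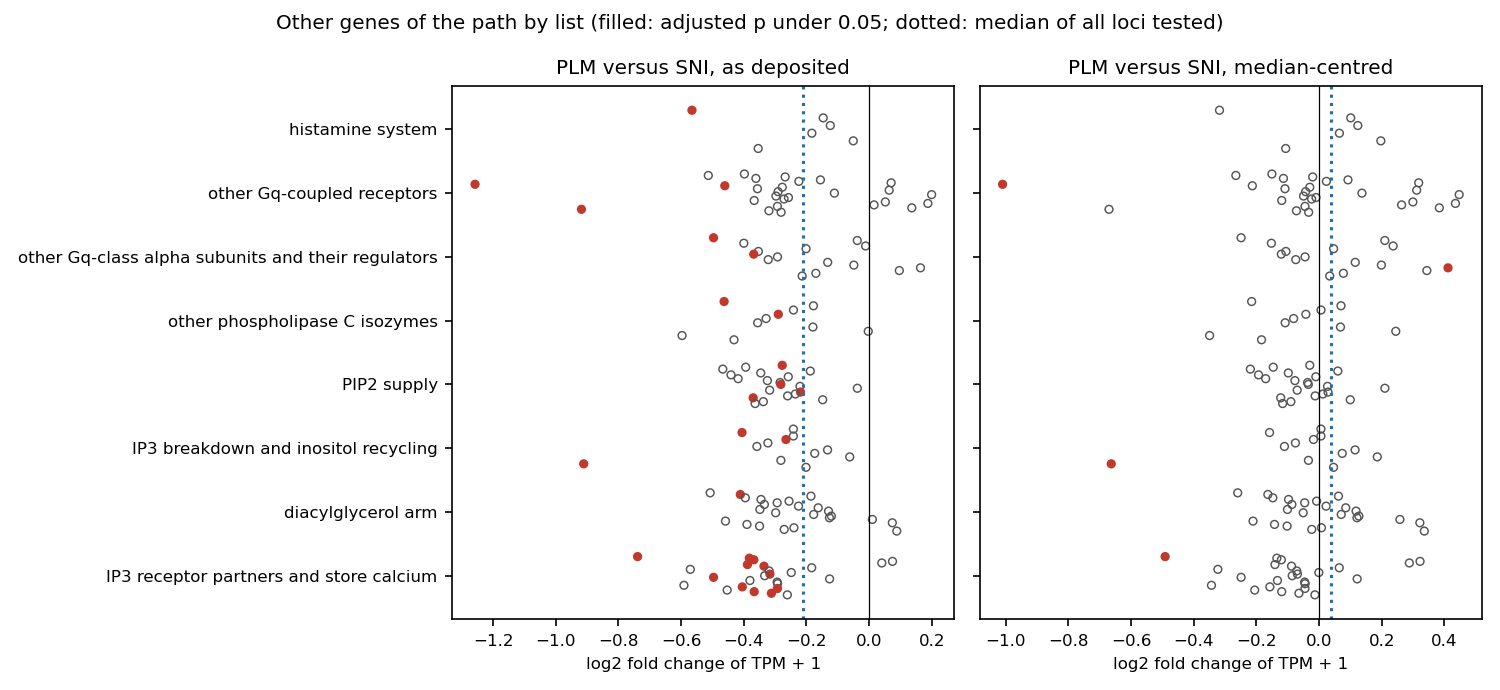
Log2 fold change of TPM + 1 between PLM and SNI (horizontal axis) of the 140 other genes of the path that were tested, by list, as deposited and centred on each library's median. Filled points have an adjusted p under 0.05, 27 as deposited and 4 when centred, and the dotted line is the median of all loci tested, at -0.21 and 0.037.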

How the data were processed

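RNA of 9 spinal cord libraries, 3 each of JA, SNI and PLM, was grouped by the sample titles. Reads were trimmed with fastp 0.19.5, mapped with HISAT2 and quantified with StringTie per the study's methods and notes, and the authors called genes with DESeq2. The authors deposited TPM, scaled for gene length and to 1000000 per library, which keep no depth, so no counting error can be given. The submitters' notes name a human genome build while the identifiers are rat Ensembl ones, so no coordinates are taken from the files.

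Here limma 3.58.1 in R 4.3.3 was run with a variance trend on log2(TPM + 1), on loci that averaged 1 TPM or more across the 6 libraries of a pair, with Benjamini-Hochberg adjustment. The calling was tested on simulated data with independent noise at each locus. The simulation held no shift of whole libraries, so it cannot speak to calls that depend on centring. Each limma p-value sets a group difference against the spread between libraries of the same group. Named genes were all 10 members, up to 4 of the genes passing the test per list and comparison by smallest p, and the 5 named loci most like Hrh1. The values of 1 gene that this rule names are not reported here. The members and lists were chosen with earlier results of these data known, and the promoter motifs and phospholipase C shares after values had been seen. Promoters came from RefSeq (GRCr8), where all 10 members matched by symbol. The alternatives were median centring, quantile normalization, rescaling without the 13 mitochondrial protein genes, a pseudocount of 0.1, no filter, 1 TPM in every library, all 9 libraries in 1 fit, a block for the replicate number, and each library left out in turn.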

Additional observations from a re-analysis of the deposited data

How the results depend on the processing

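Between SNI and JA and between PLM and JA, 0 members tested passed the adjusted threshold under all 14 alternatives. Between PLM and SNI, the count of members past it, 4 as reported, was 0 with median centring, 0 with quantile normalization, 1 without the mitochondrial protein genes, 0 with all 9 libraries in 1 fit and from 1 to 3 with 1 library left out. Over all loci, the count lower in PLM was 2110 as reported and, in the same order, 106, 132, 267, 463 and from 264 to 1456. The count of 27 other path genes that fell was 3 with median centring, 3 with quantile normalization, 4 without the mitochondrial protein genes, 15 with no filter, 7 with all 9 libraries in 1 fit and from 4 to 21 with 1 library left out. With no filter, 1237 of 21973 loci were lower in PLM. Itpkb, Ahcyl1 and Ednrb passed under all 14 alternatives, with adjusted p-values from limma up to 0.0407, 0.0468 and 0.0449. Every other path gene named as having fallen lost its call in at least 1 alternative, median centring included, and in the fits that left out 1 library the largest adjusted p came without PLM replicate 1 for most of them.

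Some small fold changes turned sign. Between SNI and JA, Itpr1 was -0.064 with median centring, -0.057 with quantile normalization and -0.018 without the mitochondrial protein genes, and Itpr2 was -0.032 and -0.026 with the first 2 of these. With 1 library left out, Gna11 ranged from -0.078 to 0.077, Itpr1 from -0.061 to 0.147, Itpr2 from -0.049 to 0.181 and Itpr3 from -0.113 to 0.573. Between PLM and JA, Gnaq was 0.017 with median centring and 0.0028 with quantile normalization, and with 1 library left out Plcb4 ranged from -0.046 to 0.163 and Itpr3 from -0.482 to 0.203. Between PLM and SNI, Pitpna was 0.029 with median centring. The cause of these changes was not tested. Hrh1 was under the filter in several alternatives, which then gave it no value.

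The replicate numbers are not stated to mark a shared animal or day. The deviations of same-numbered libraries correlated at between -0.0508 and 0.123 over the 3 comparisons. Whether same-numbered libraries shared a day or batch was not tested. Between SNI and JA, 1978 loci were at an unadjusted p under 0.05 in limma with the replicate number as a block, where 1104 were without it. With the replicate number as a block, 1 member and 3 other path genes were lower in PLM than in SNI, where 151 of 15474 loci were.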

Other observations

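The full nuclear factor I site of the Hrh1 promoter window occurs in 12 windows of 11 gene symbols, of which 7 have a row in the table. Of the 6 other than Hrh1, Adora2b, the adenosine A2B receptor gene, was picked out after the values had been seen. It measured 5.63, 3.51 and 2.68 TPM in JA, 6.22, 6.08 and 4.98 TPM in SNI and 2.36, 1.52 and 2.08 TPM in PLM. The PLM libraries of Adora2b were all below the SNI libraries, where 41.9% of loci were, and all below the JA libraries, where 15.7% were. Within JA, replicate 3 was the lowest for Adora2b, as it was for Hrh1. It was also the lowest for Plcd4, Ednrb, Itpkb and Ahcyl1, which are not among the 11 symbols. Galt measured 12.65, 10.2 and 11.25 TPM in JA, 12.59, 9.83 and 11.86 TPM in SNI and 10.07, 12.27 and 8.76 TPM in PLM, and its 3 groups overlapped. Cdh15 and Ifi44l overlapped as well, and Arhgap40 and Sult1c2a were at 0.22 TPM or less in every library. A match to these letters is not evidence of binding.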
